A study of Homo sapiens with 12 samples.

Results

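Trefoil factors, anterior gradient (AGR) proteins and 5 further secreted or membrane proteins are made by gut-type mucous epithelium and by pancreatic tumours of the classical type. They were followed here as the 10 rows of the expression table whose gene name was TFF1, TFF2, TFF3, AGR2, AGR3, DMBT1, TM4SF4, TSPAN8, REG4 or LYZ, out of 58302 genes in all, and each name matched 1 row. The trefoil factors are small, protease-resistant peptides that are secreted with mucins and help to repair the mucosal surface. AGR2 and AGR3 are protein disulfide isomerases of the endoplasmic reticulum, and AGR2 is needed to fold mucins. Healthy pancreatic ducts make little of most of these proteins, and classical-type pancreatic tumours are known for making many of them.

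RNA-seq was done on 12 libraries in 4 groups of 3, from the human pancreatic cancer lines BxPC-3 and CFPAC-1 and from their gemcitabine (GEM)-resistant derivatives, BxPC-3-GR for the first and CFPAC-1-GR for the second, selected by raising the GEM concentration step by step. GEM is a nucleoside analogue that blocks DNA synthesis. The final GEM concentration was higher for BxPC-3-GR than for CFPAC-1-GR, each resistant line stands for 1 selection, and the sources used here do not say whether GEM was present when RNA was taken or whether the replicates were separate cultures, so p-values measure the spread between these libraries only. The labels give RPMI 1640 as the medium of all 4 lines and a mesenchymal morphology for BxPC-3-GR only, whereas the methods of the study give IMDM for CFPAC-1.

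The values were FPKM, in which fragments are scaled to transcript length and to library size, and the steps between low values implied library sizes of 12.6 to 25.2 M fragments (M, mega). Of 12 epithelial markers, between 10 and 12 reached a mean of 1 FPKM in each group, and their summed level was 868 to 957 FPKM in BxPC-3, 1010 to 1100 FPKM in BxPC-3-GR, 2670 to 2950 FPKM in CFPAC-1 and 1200 to 1390 FPKM in CFPAC-1-GR. The lower sum of CFPAC-1-GR was carried by keratins, with KRT19 at means of 1570 and 531 FPKM in CFPAC-1 and CFPAC-1-GR, whereas EPCAM (86.2 and 118 FPKM), CDH1 (21.6 and 37.5 FPKM) and GRHL2 (4.02 and 12.8 FPKM) were higher in CFPAC-1-GR. What part these markers had in the results was not tested. Mesenchymal markers summed to 54.1 to 60.4 FPKM in BxPC-3 and 55.1 to 57.5 in BxPC-3-GR, so the labelled mesenchymal morphology did not go with a higher sum of that list. Its members went both ways from BxPC-3 to BxPC-3-GR. SNAI2, the largest part of the sum, had means of 41.2 and 23.0 FPKM, and VIM 6.59 and 0.813 FPKM. S100A4 (2.35 and 18.1 FPKM), FN1 (5.30 and 9.09 FPKM) and CDH2 (1.99 and 5.40 FPKM) were higher in BxPC-3-GR. The other markers of the list had means under 1 FPKM in both. Markers of acinar cells, fibroblasts and endothelium summed to at most 9.26, 6.05 and 1.73 FPKM in any library. These are bulk values, in which fewer cells that make a transcript and less transcript in each cell cannot be told apart.

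The 10 genes covered a wide range of levels. AGR2 was by far the most abundant, with a group mean higher than that of 94.5% to 99.3% of 19817 protein-coding genes, and in BxPC-3-GR it held rank 130 from the top. DMBT1 and TM4SF4 reached comparable ranks in CFPAC-1, above 96.8% and 94.6% of coding genes, and nowhere else. The other 7 genes stayed at group means of 7.02 FPKM or less, and AGR3 and REG4 never exceeded 0.146 FPKM in any library. The plot of FPKM by library gives every value.

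**Figure D1:**
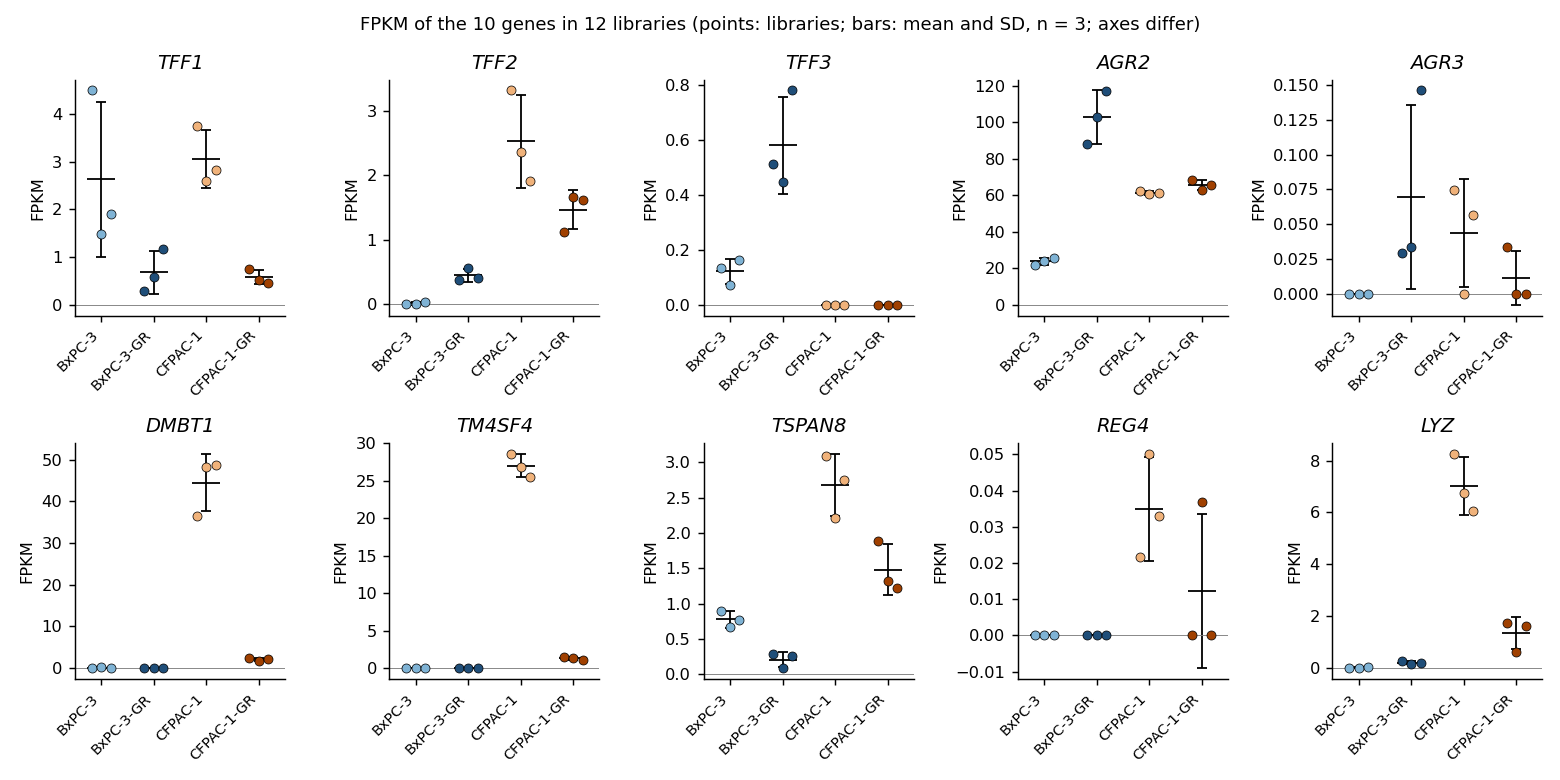
FPKM (vertical axes, 1 panel per gene, scales differ) of the 10 genes in 4 groups; each point is 1 library, and the bars give the mean and SD of 3 libraries. AGR2 is highest in BxPC-3-GR (88.0 to 117 FPKM), while DMBT1, TM4SF4 and LYZ are high in CFPAC-1 and lower in CFPAC-1-GR.

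GEM-resistant and parental cells were compared with limma on log2(FPKM + 1), keeping genes whose mean reached 1 FPKM, and a gene was called when its adjusted p was below 0.05 and its Log2FC was above 1 in size. The filter left 2 of the 10 genes in the BxPC-3 comparison. There AGR2 rose and TFF1 fell, against 4.14% of 11710 genes called up and 3.62% called down. TFF1 passed the filter only through the parental line, here and in the CFPAC-1 comparison, so the filter fixed its direction. The filter left 7 of the 10 genes in the CFPAC-1 comparison. There DMBT1, TM4SF4, LYZ and TFF1 fell and none rose, against 20.5% of 12051 genes called up and 11.7% called down. That background was not stable: the number of genes called up and down was 2473 and 1407 as reported, 1746 and 2285 with median-of-ratios scaling, and 851 and 283 after correction for GC content and length. Without any filter, every BxPC-3-GR library lay above every BxPC-3 library for TFF2, TFF3, AGR2, AGR3 and LYZ and below them for TFF1, DMBT1 and TSPAN8, while 20.1% of the 28777 genes above 0 in these libraries were higher without overlap and 23.0% were lower. Every CFPAC-1-GR library lay above every CFPAC-1 library for AGR2 and below them for TFF1, TFF2, DMBT1, TM4SF4, TSPAN8 and LYZ, with 34.6% of 29966 genes higher without overlap and 18.8% lower.

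**Figure D2:**
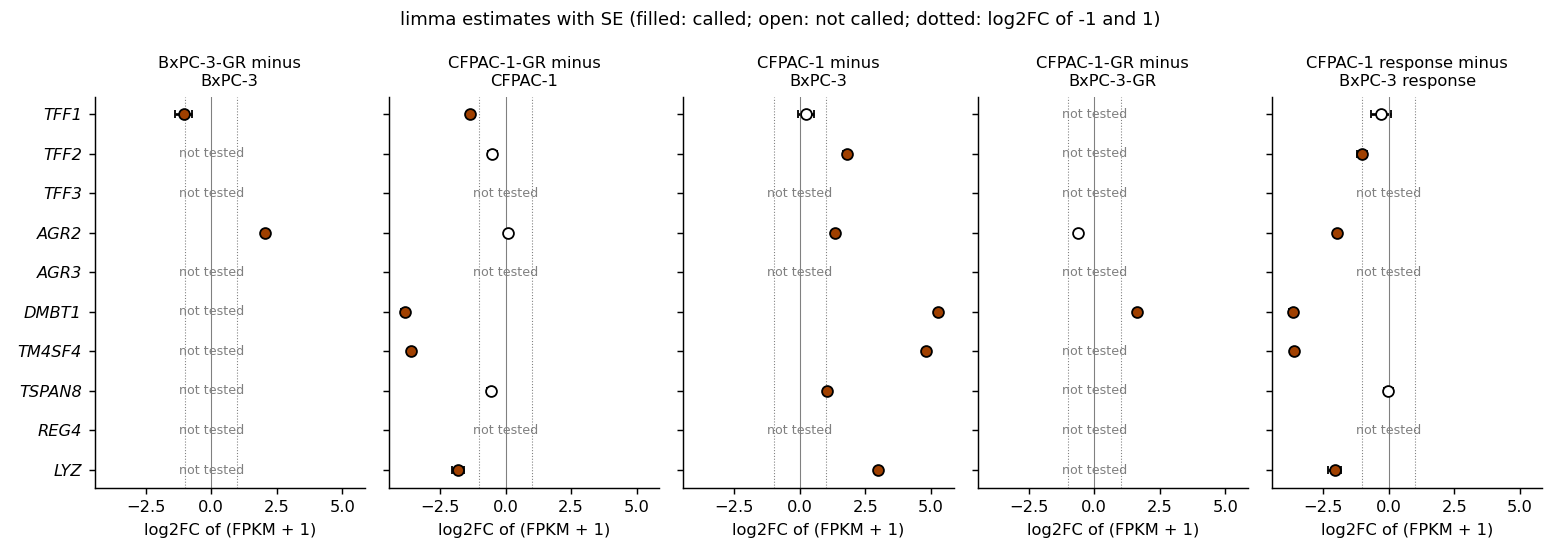
log2FC of FPKM + 1 (horizontal axes) of each gene in 5 comparisons, with SE; filled points were called, open points were not, and genes under the filter are marked as not tested. AGR2 lies at 2.05 in BxPC-3-GR and at 0.09 in CFPAC-1-GR, and DMBT1, TM4SF4 and LYZ lie at -3.84, -3.61 and -1.81 in the CFPAC-1 comparison.

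The trefoil factor genes TFF1, TFF2 and TFF3 lie side by side on chromosome 21 (GRCh38), on the minus strand, at positions 42362282 to 42366594, 42346357 to 42351128 and 42311667 to 42315651. TFF1, which is normally secreted by the surface mucous cells of the stomach, measured 4.49, 1.48 and 1.91 FPKM in BxPC-3 and 0.288, 0.588 and 1.17 FPKM in BxPC-3-GR. It measured 3.74, 2.59 and 2.83 FPKM in CFPAC-1 and 0.749, 0.530 and 0.467 FPKM in CFPAC-1-GR. TFF1 was thus lower in each resistant line with no overlap, and the parental lines overlapped each other. In CFPAC-1-GR the mean was 5.25-fold lower (Log2FC -1.35, SE 0.125, adjusted p = 5.7e-05), and in BxPC-3-GR it was 3.85-fold lower (Log2FC -1.05, SE 0.335, adjusted p = 0.036). The mean was under 1 FPKM in both resistant lines, so the filter fixed the direction of both calls.

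Few fragments stood behind TFF1, from 4 to 43 in a library. Its call in the BxPC-3 comparison did not hold without BxPC-3 replicate 1 (Log2FC -0.71), BxPC-3 replicate 3 (-1.17, adjusted p = 0.057), BxPC-3-GR replicate 1 (-0.88) BxPC-3-GR replicate 2 (-1.03, adjusted p = 0.085), or after GC and length correction (-0.98). The call in CFPAC-1-GR was lost only after GC and length correction, at a Log2FC of -0.54.

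TFF2, a gastric mucous neck cell peptide with a pair of trefoil domains, was close to undetected in BxPC-3, at 0, 0 and 0.0397 FPKM, and measured 0.377, 0.565 and 0.409 FPKM in BxPC-3-GR. The BxPC-3 values stood for 1 fragment in all and the BxPC-3-GR values for 47, and the groups did not overlap. In CFPAC-1 it measured 3.31, 2.36 and 1.90 FPKM, and in CFPAC-1-GR 1.12, 1.66 and 1.61 FPKM, which was lower in every library but not called (Log2FC -0.50, SE 0.163, adjusted p = 0.025) and came to 0.13 after GC and length correction. TFF3, the goblet cell trefoil factor, measured 0.133, 0.0705 and 0.162 FPKM in BxPC-3 and 0.513, 0.448 and 0.780 FPKM in BxPC-3-GR, or 14 against 91 fragments. TFF3 was listed at 0 in all 6 libraries of the CFPAC-1 lines. Within this gene cluster, then, TFF1 was lower and TFF2 and TFF3 were higher in every BxPC-3-GR library.

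AGR2 (chromosome 7, 16791811 to 16833433, minus strand) and AGR3 (16859405 to 16881987, minus strand) are neighbours, 26.0 kb apart. Stretches upstream of their RefSeq starts (GRCh38.p14), ended where the nearest GENCODE 29 exon in the window begins, are shown because these adjacent relatives differed in level in every library. The start used for AGR2 lies inside the span of the gene given above, so its stretch precedes an internal annotated start and not the outermost one at 16833433. Capitals mark TATAAA, the letters of a TATA box, or GATAA, the core read by GATA factors.
AGR2, chr7:16805081-16805249, minus strand: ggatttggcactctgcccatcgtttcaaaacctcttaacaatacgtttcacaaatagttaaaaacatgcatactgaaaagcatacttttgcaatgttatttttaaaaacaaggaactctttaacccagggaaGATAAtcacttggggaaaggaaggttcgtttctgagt
AGR3, chr7:16881988-16882233, minus strand: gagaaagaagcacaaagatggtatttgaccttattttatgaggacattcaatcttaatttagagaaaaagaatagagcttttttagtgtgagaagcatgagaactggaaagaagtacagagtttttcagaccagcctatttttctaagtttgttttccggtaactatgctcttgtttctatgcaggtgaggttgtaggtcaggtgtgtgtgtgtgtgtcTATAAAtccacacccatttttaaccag
The GATAA of AGR2 lay at -118 to -114 from the RefSeq start, and 20.4% of 35116 promoters held these letters on either strand in the same 250 bases. The TATAAA of AGR3 lay at -31 to -26, and 10.7% of promoters held it. Neither window held the forkhead letters TGTTTAC or TGTTTGC, which 2.98% and 3.23% of promoters held.

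AGR2 measured 21.8, 23.8 and 25.9 FPKM in BxPC-3 and 88.0, 103 and 117 FPKM in BxPC-3-GR. All BxPC-3-GR libraries were higher than any other library of the series. The mean rose 4.31-fold (Log2FC 2.05, SE 0.119, adjusted p = 4.6e-05), and the call held under each setting tried, between 2.05 and 2.12, and without any single library, between 1.95 and 2.16. AGR2 measured 62.6, 60.5 and 61.2 FPKM in CFPAC-1 and 68.3, 62.9 and 65.5 FPKM in CFPAC-1-GR, a difference that was not called (Log2FC 0.09, SE 0.0642, adjusted p = 0.22). The sign of that difference turned to -0.21 with median-of-ratios scaling and to -0.59 after GC and length correction. The response of AGR2 differed between the lines by -1.96 on the log2 scale (SE 0.137, adjusted p = 2.5e-07).

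AGR3 was listed at 0 in every BxPC-3 library and measured 0.0289, 0.0336 and 0.146 FPKM in BxPC-3-GR, which stood for 7 fragments in all. The CFPAC-1 and CFPAC-1-GR libraries held 3 and 1 fragments of AGR3. These counts were too low for a test. On the other side of AGR3 lies AHR, the aryl hydrocarbon receptor, which rose in BxPC-3-GR (25.5 to 62.4 FPKM, Log2FC 1.27, adjusted p = 8.3e-05) and in CFPAC-1-GR (2.49 to 6.30 FPKM, Log2FC 1.06, adjusted p = 4.8e-05). TSPAN13, the nearest coding gene beyond AGR2, was not called in either line (Log2FC 0.78 and 0.74).

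DMBT1 (chromosome 10, 122560665 to 122643736, plus strand) encodes a large scavenger receptor of mucous secretions that binds bacteria and trefoil factors. It measured 36.6, 48.2 and 48.8 FPKM in CFPAC-1 and 2.44, 1.76 and 2.30 FPKM in CFPAC-1-GR. Every resistant library was below every parental library, by 20.5-fold in the mean (Log2FC -3.84, SE 0.140, adjusted p = 6.3e-06). In BxPC-3 it measured 0.164, 0.183 and 0.131 FPKM, and in BxPC-3-GR 0.0148, 0.0057 and 0.0050 FPKM, which stood for 70 and 5 fragments and did not overlap. The ratio of fragments per library size, parental to resistant, was 18.5 in the BxPC-3 lines (95% exact binomial interval 7.58 to 58.9, counting error only) and 19.8 in the CFPAC-1 lines (18.6 to 21.2). The stretch before its first exon is shown because DMBT1 had the largest Log2FC among the 10 genes in CFPAC-1-GR, with capitals for TATAAA on the minus strand.
DMBT1, chr10:122560504-122560664, plus strand: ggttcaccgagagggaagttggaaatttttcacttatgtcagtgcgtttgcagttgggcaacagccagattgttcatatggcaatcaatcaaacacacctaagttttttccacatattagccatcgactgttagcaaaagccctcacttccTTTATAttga
The 250 bases before the RefSeq start of DMBT1 held TATAAA at 3 places, the nearest at -29 to -24, and those of TM4SF4 and REG4 held it at -31 to -26. RefSeq promoters were matched for 5 of the 10 genes, AGR2, AGR3, DMBT1, TM4SF4 and REG4, and the window of TM4SF4 was not printed because it lies inside an annotated exon.

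LYZ (chromosome 12, 69348341 to 69354234, plus strand), which encodes the antibacterial enzyme lysozyme, measured 8.26, 6.76 and 6.05 FPKM in CFPAC-1 and 1.75, 0.631 and 1.64 FPKM in CFPAC-1-GR. The groups did not overlap, and the mean fell 5.24-fold (Log2FC -1.81, SE 0.215, adjusted p = 0.00020). In BxPC-3 LYZ measured 0.0222, 0 and 0.0452 FPKM and in BxPC-3-GR 0.291, 0.161 and 0.187 FPKM, or 3 against 40 fragments. LYZ is also made by myeloid cells, whose list was low apart from a few genes: of 13 leukocyte and myeloid markers, 2 or 3 reached 1 FPKM in a group, and PTPRC, TYROBP, AIF1 and MS4A1 were listed at 0 in all 12 libraries. Its summed level was 35.8 to 44.4 FPKM in CFPAC-1 and 270 to 313 FPKM in CFPAC-1-GR, and S100A9 alone had means of 3.14 and 269 FPKM. CD68, a macrophage marker that other cells also make, was lower in CFPAC-1-GR as LYZ was, at means of 32 and 11.3 FPKM. In the BxPC-3 lines the sum was 153 to 167 FPKM in the parental and 40.3 to 44.6 FPKM in the resistant libraries. What part these markers had in the LYZ values was not tested.

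REG4 (chromosome 1, 119794018 to 119811660, minus strand), a secreted lectin of intestinal-type epithelium, was listed at 0 in all 6 libraries of the BxPC-3 lines. The CFPAC-1 libraries held 2 to 3 fragments of it and the CFPAC-1-GR libraries 0 to 3. No difference of REG4 was detectable at this depth.

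TM4SF4 (chromosome 3, 149473974 to 149503281, plus strand) and TSPAN8 (chromosome 12, 71125085 to 71441898, minus strand) encode membrane proteins with several membrane spans, from the L6 and the tetraspanin family. TM4SF4 measured 28.6, 26.9 and 25.5 FPKM in CFPAC-1 and 1.52, 1.32 and 1.04 FPKM in CFPAC-1-GR. It fell 20.8-fold without overlap (Log2FC -3.61, SE 0.0961, adjusted p = 5.7e-06). It was listed at 0 in all 6 libraries of the BxPC-3 lines, so no fold between the lines is given. Its relative TM4SF1, the nearest coding gene on one side, was expressed in both lines and rose in BxPC-3-GR from 6.55 to 15.8 FPKM (Log2FC 1.15, adjusted p = 3e-05), with 25.7 and 22.5 FPKM in CFPAC-1 and CFPAC-1-GR (Log2FC -0.19, adjusted p = 0.065), a difference that was called after GC and length correction (-1.11, adjusted p = 8.7e-05).

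TSPAN8 measured 0.900, 0.664 and 0.763 FPKM in BxPC-3 and 0.280, 0.0845 and 0.252 FPKM in BxPC-3-GR, lower in every resistant library by 3.78-fold in the mean. It measured 3.09, 2.21 and 2.74 FPKM in CFPAC-1 and 1.89, 1.32 and 1.22 FPKM in CFPAC-1-GR, again lower in every resistant library, by 1.81-fold. The CFPAC-1-GR difference was not called (Log2FC -0.57, SE 0.133, adjusted p = 0.0058), and was called after GC and length correction (-1.28). The span of TSPAN8, introns included, overlaps that of LGR5 on the opposite strand by 2129 bases, and LGR5 was at most 0.0268 FPKM.

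The low genes of the BxPC-3 lines could be tested only with a lower minimum mean of 0.1 FPKM and a pseudocount of 0.1, a setting chosen after the data were seen. There, 7.5% of 19698 genes were called up and 6.03% down, and 6 of the 10 genes were tested. AGR2, TFF2, TFF3 and LYZ were called up, with Log2FC of 2.10, 2.28, 1.61 and 1.35. TSPAN8 was called down at -1.58 (adjusted p = 0.011), while TFF1 was at -1.81 and not called (adjusted p = 0.057). The adjusted p was 0.00075 for TFF2, 0.0049 for TFF3 and 0.0054 for LYZ. TFF2 and LYZ passed this minimum only through BxPC-3-GR, so the filter fixed their direction. DMBT1, which was lower in every BxPC-3-GR library, stayed under the minimum and was not tested. Nothing is therefore read from the count of these calls.

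**Figure D3:**
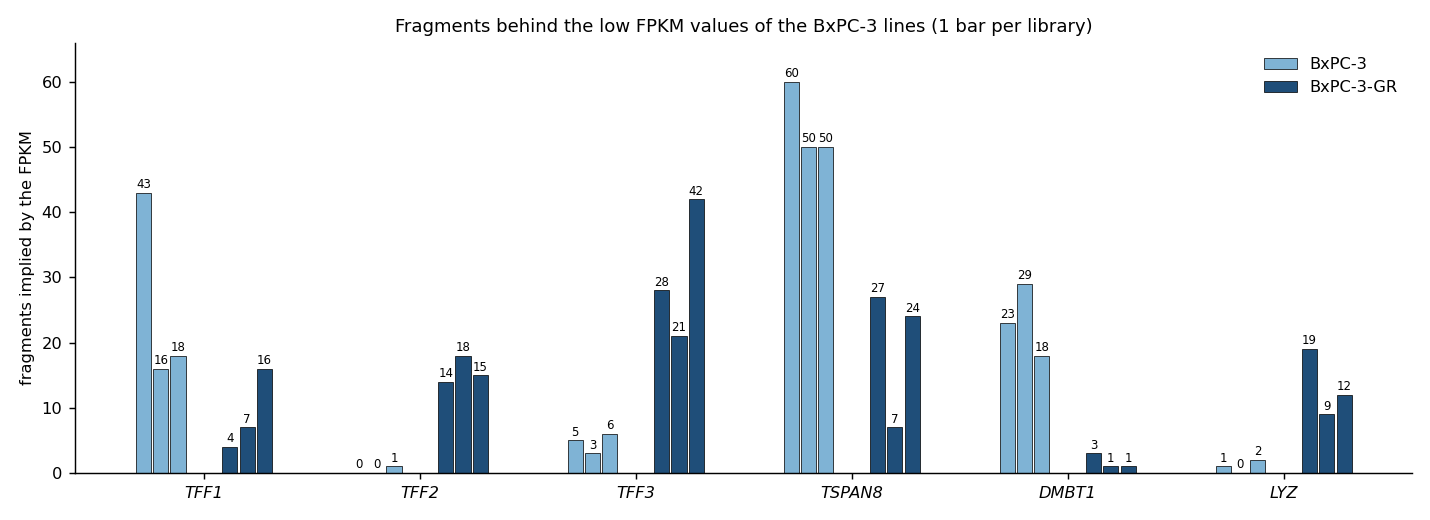
Fragments implied by the FPKM values (vertical axis, 1 bar per library) of 6 low genes in BxPC-3 and BxPC-3-GR. TFF2, TFF3 and LYZ rest on 0 to 6 fragments in each BxPC-3 library and on 9 to 42 in each BxPC-3-GR library.

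Between the parental lines, 6 of 7 tested genes were higher in CFPAC-1 and none was lower, where 19.8% of 11842 genes were called higher and 24.7% lower. DMBT1, TM4SF4, LYZ, TFF2 and TSPAN8 passed the filter only through CFPAC-1, so the filter fixed their direction and nothing is read from this count. TFF3, under the filter, was lower in CFPAC-1 without overlap. DMBT1 was at 44.5 against 0.159 FPKM in the mean (Log2FC 5.28, SE 0.116), TM4SF4 was at 25.5 to 28.6 FPKM against 0 and LYZ was at 7.02 against 0.0225 FPKM (Log2FC 2.96). TFF2 (Log2FC 1.78), AGR2 (1.33) and TSPAN8 (1.05) followed with adjusted p of 2.7e-05, 4.1e-06 and 8e-05, and without CFPAC-1 replicate 1 the TSPAN8 call was lost (0.97) and TFF2 was under the filter, which left 4 calls. TFF1 was not called (0.24, adjusted p = 0.48), and it came to -0.61 after GC and length correction. The split of all genes called higher and lower in CFPAC-1 was 2350 and 2924 as reported and 3010 and 2330 with upper-quartile scaling.

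Between the resistant lines the filter left DMBT1 and AGR2. DMBT1 was still higher in CFPAC-1-GR (Log2FC 1.64, SE 0.0933, adjusted p = 1.1e-05), where 10.3% of 12330 genes were called higher and 6.8% lower. AGR2 was lower in every CFPAC-1-GR library than in any BxPC-3-GR library and not called (Log2FC -0.63, adjusted p = 0.0023). With the lower minimum and pseudocount, 6 of 8 tested genes were called, DMBT1, TM4SF4, LYZ, TFF2 and TSPAN8 higher and TFF3 lower in CFPAC-1-GR, against 19.2% and 9.29% of 21543 genes. DMBT1 passed both filters only through CFPAC-1-GR. At the lower minimum TM4SF4 passed only through CFPAC-1-GR and TFF3 only through BxPC-3-GR. The filter thus fixed the direction of these genes, and nothing is read from these counts.

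Whether the resistant lines differed in their response was tested as the CFPAC-1-GR change minus the BxPC-3-GR change. Of 7 tested genes, DMBT1 (-3.64, SE 0.156), TM4SF4 (-3.61, SE 0.104), LYZ (-2.05, SE 0.245), AGR2 (-1.96, SE 0.137) and TFF2 (-1.02, SE 0.189) were called lower, against 23.6% of 12210 genes called higher and 14.4% lower. The split of all genes, 2885 higher and 1758 lower, was 2038 and 2590 with median-of-ratios scaling. DMBT1, TM4SF4, LYZ and TFF2 passed the filter only through the CFPAC-1 lines, so the filter and their fall in CFPAC-1-GR fixed the sign, and nothing is read from this count. At or near 0 in the BxPC-3 lines log2(FPKM + 1) could hardly move, and the ratios of DMBT1 given above were close in both lines. AGR2 was above 20 FPKM in every library. TFF1 (-0.30, adjusted p = 0.50) and TSPAN8 (-0.01, adjusted p = 0.95) were not called, and these 2 genes were lower in every library of both resistant lines. TSPAN8 also passed the filter only through the CFPAC-1 lines.

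**Figure D4:**
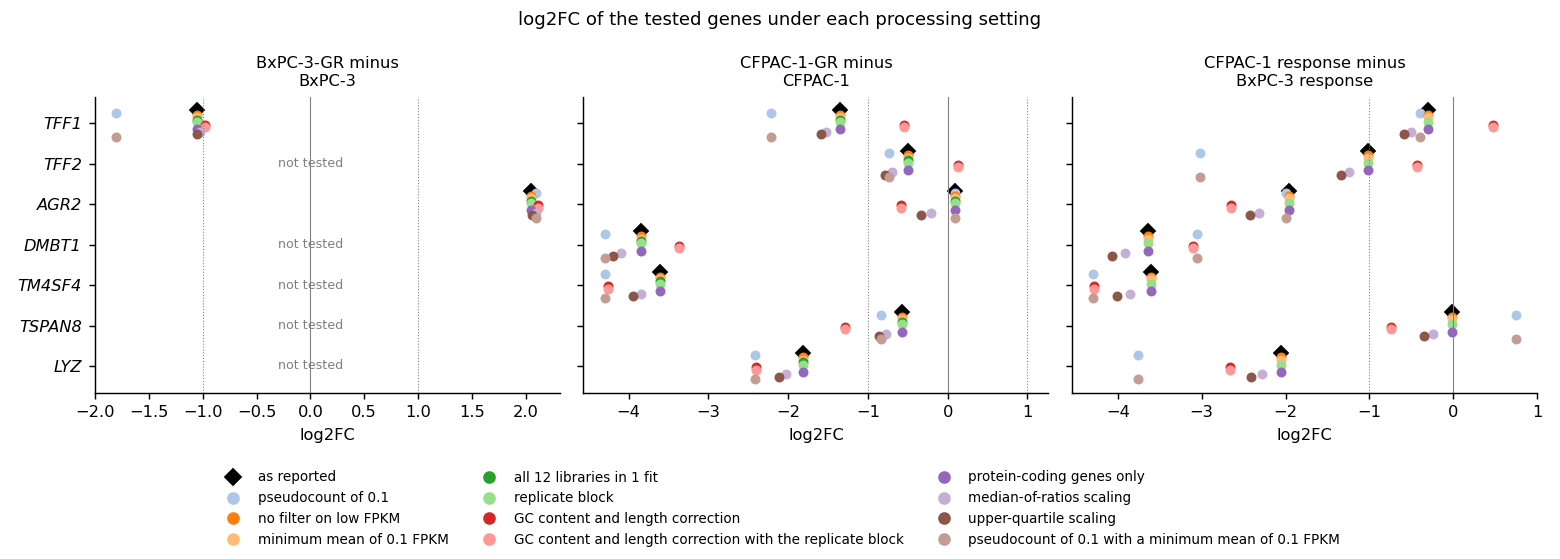
log2FC (horizontal axes) of the 7 tested genes under each processing setting for both resistant lines and for the difference between their responses; the black diamond is the value as reported. DMBT1, TM4SF4 and LYZ stay below -1 under each setting in CFPAC-1-GR, while TFF1 moves from -1.35 to -0.54 after GC and length correction.

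The genes differed in base composition, which the correction in CFPAC-1-GR used. DMBT1, TFF1 and TFF2 have transcripts of 56.2%, 56.1% and 53.5% GC and moved upward with it, whereas AGR2, LYZ, TM4SF4 and TSPAN8 lie at 40.9% to 41.5% GC and moved downward. The transcripts also ranged in exonic length from 551 bases for TFF1 to 8073 for DMBT1, so that equal FPKM of these genes rested on unequal fragment counts.

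Other genes of classical-type tumours went different ways in the resistant lines. Of 31 such genes, 15 were tested in BxPC-3-GR. Of these, 6 rose and 3 fell, where 4.14% of all genes tested were called up and 3.62% down. The median Log2FC was 0.73 against -0.05 over all genes tested. ELF3, an epithelial ETS factor (3.96 to 24.9 FPKM, Log2FC 2.38), ST6GALNAC1, a mucin sialyltransferase (0.551 to 4.42 FPKM, 1.81), and CTSE, the gastric protease cathepsin E (0.196 to 2.90 FPKM, 1.71), rose, and ANXA10 (-2.82), CEACAM6 (-2.75) and FOXQ1 (-2.14) fell. ST6GALNAC1 and CTSE passed the filter only through BxPC-3-GR, so the filter fixed their direction, and the median includes them. In CFPAC-1-GR, 1 of 16 rose and 6 fell, where 20.5% of all genes tested were called up and 11.7% down. The median was -0.76 against 0.13. The counts were 1 and 8 with either other scaling and, with partly other genes, 1 and 6 after GC and length correction. The leading falls were GPX2 (-1.64), ST6GALNAC1 (-1.56) and S100P (-1.51), and PLS1 rose (1.69), although after the correction PLS1 came to 0.58 and S100P to -0.93, short of a call, and FOXQ1 (1.69) was the 1 gene called up. ST6GALNAC1 and S100P passed the filter only through CFPAC-1 here, so the filter fixed the direction of their falls. The shares of all genes given above also stand beside the lists that follow. Of 25 genes of basal-like tumours, 3 rose and 5 fell in BxPC-3-GR and 4 rose and 3 fell in CFPAC-1-GR, at medians of -0.06 and -0.16. In CFPAC-1-GR 2 rose and 3 fell after the correction, while upper-quartile scaling gave 4 and 8 and median-of-ratios scaling 4 and 7.

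Among 16 mucins, partners and receptors of trefoil and AGR proteins, MUC1 (0.353 to 4.01 FPKM, Log2FC 1.88) and MUC5B (0.0478 to 2.43 FPKM, 1.71) rose in BxPC-3-GR beside AGR2, and LYPD3, a surface protein that binds AGR2, fell (8.96 to 3.76 FPKM, -1.07). The median was 0.10 over 6 tested genes. MUC1 and MUC5B passed the filter only through BxPC-3-GR, so the filter fixed their direction. In CFPAC-1-GR, the gel-forming gastric mucin MUC5AC, which is secreted together with TFF1, fell (5.26 to 0.298 FPKM, -2.23), as did ZG16B (-1.06), and EGFR rose (1.02). After GC and length correction MUC5AC was the only one still called, at -1.71. MUC5AC passed the filter only through CFPAC-1, so the filter fixed its direction. In the BxPC-3 lines MUC5AC was under the filter and higher in BxPC-3-GR (0.0553 to 1.78 FPKM), where TFF1 was lower. Of 24 disulfide isomerases and folding partners of AGR2, 1 of 22 tested rose in BxPC-3-GR, ERN2, the IRE1 sensor of mucous cells (0.328 to 2.76 FPKM, Log2FC 1.5), and none fell. In CFPAC-1-GR 4 rose and 1 fell, led by HSP90B1 (1.65), ERO1A (1.48) and ERO1B (1.47) and by TXNDC5 (-1.33), and the correction left 0 up and 2 down. ERN2 passed the filter only through BxPC-3-GR and ERO1B only through CFPAC-1-GR, so the filter fixed their direction.

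Of 35 genes listed as family relatives of the 10 genes, PIGR and TM4SF1 rose in BxPC-3-GR and none fell. PIGR, the polymeric immunoglobulin receptor of mucous epithelium (1.70 to 26.4 FPKM, Log2FC 3.34), is itself of another family. TSPAN6 rose (1.13) and TSPAN15 (-1.23) and CD63 (-1.14) fell in CFPAC-1-GR, and these calls were lost after the correction, under which CD82 (1.06) was called up and TM4SF1 (-1.11) and TSPAN3 (-1.24) down. With either other scaling 0 were called up and 5 down.

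Of 19 transcription factors of endodermal and classical-type epithelium, 14 were tested between the parental lines and 9 were higher in CFPAC-1, led by FOXA3 (7.98 FPKM against 0), SOX9 (52.7 against 5.45 FPKM) and PDX1 (4.35 against 0.0957 FPKM), and KLF5 was lower (19.8 against 53.9 FPKM). CDX2, SPDEF, CREB3L1 and CREB3L4 were also among those higher. Of all genes tested, 19.8% were called higher and 24.7% lower. FOXA3, PDX1, CDX2, CREB3L1 and CREB3L4 passed the filter only through CFPAC-1, so the filter fixed their direction. After GC and length correction 5 were higher and 3 lower: FOXA3, SOX9, PDX1 and CDX2 were still called, SPDEF (0.10), CREB3L1 (0.49) and CREB3L4 (0.63) were not, and GATA6 (-1.51) and KLF4 (-1.40) were called lower beside KLF5. In CFPAC-1-GR, 5 of 15 tested fell and none rose, at a median of -0.47 over the list. Among them were FOXA3 (7.98 to 2.41 FPKM, Log2FC -1.39), PDX1 (-1.22), FOXA2 (-1.08) and CDX2 (-1.01). The correction left 0 down and 1 up, KLF4 (1.11), and under it these named genes were between -0.35 and -0.18. In BxPC-3-GR only SPDEF, a factor that drives goblet cell differentiation, was called, and it fell (16.9 to 7.04 FPKM, -1.15), while FOXA1 (Log2FC 0.81) and FOXA2 (0.65) were not called. The responses of FOXA2 (-1.73), FOXA3 (-1.39), FOXA1 (-1.27), CREB3L1 (-1.15) and PDX1 (-1.11) differed between the lines as reported. FOXA3 was at 0 in BxPC-3 and BxPC-3-GR, and PDX1 at 0.0957 and 0.0161 FPKM, where log2(FPKM + 1) could hardly move. The differences of FOXA3 and PDX1 therefore reflect their change in CFPAC-1-GR. After the correction FOXA1 (-1.03) was the only one of these factors still called, with FOXA2 at -0.81, FOXA3 at -0.28, CREB3L1 at -0.12 and PDX1 at -0.07. KLF4 (1.58) and SPDEF (1.55) were called in the other direction. GATA6 was lower in CFPAC-1-GR than in BxPC-3-GR (3.95 against 13.6 FPKM, -1.57) and ONECUT2 higher (1.99 against 0.0830 FPKM, 1.45).

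Around the 10 genes, 28 expressed coding neighbours were followed, the nearest 2 on each side. In BxPC-3-GR, 25 of them were tested, and AHR, TM4SF1, CP and PHGDH rose while HTRA1 and CPM fell. In CFPAC-1-GR, 24 were tested, and AHR, SNX13, COMMD2 and ZFC3H1 rose while PHGDH fell. Beside the shares of all genes given above, nothing is read from these counts.

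The genes most like each of the 10 over the 12 libraries were found by Pearson's r of log2(FPKM + 1) among 10230 coding genes. As the libraries form 4 groups, r describes mainly the order of 4 group levels. For AGR2 these were RGL3 (r = 0.99), KIAA0319L (0.989) and SOX2 (0.988), and 24 genes were above 0.95. For DMBT1, 500 genes were above 0.95, led by RBP4, INF2 and MMP15, and for TM4SF4 527, led by RBP4, CPXM1 and NDUFB11. LYZ was near NOL3 and NENF, TFF2 to RAB20, PAQR7 and ZDHHC16, and TSPAN8 to CD68, COA3 and PQBP1. TFF1 had no gene above 0.95, and NAB2, MT1X and RIN1 were nearest, at 0.926, 0.923 and 0.921.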

How the data were processed

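Total RNA of cells near confluence was sequenced on an Illumina sequencer. The authors deposited 1 table of FPKM for 58302 genes and 12 libraries, per the file headers with Ensembl 91 gene models of GRCh38. The submitters' processing notes name Trimmomatic 0.27, FastQC 0.10.1 and TopHat2 2.0.8 and the builds hg19 and GRCh38; the counting program and its use of strand are not given in the sources used here, so overlapping genes cannot be told apart by strand. The study used DESeq2 on counts, which were not used here.

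FPKM were taken to log2(FPKM + 1), genes whose mean over the compared libraries reached 1 FPKM were kept, and limma 3.58.1 in R 4.3.3 was fitted with Benjamini-Hochberg adjustment over all genes kept. A gene was called at an adjusted p below 0.05 and a Log2FC above 1 in size. Fold changes on this scale understate the change of low genes. A gene kept only through the group where it was high could be called in that direction only. The resistant and parental groups of both lines, the lines with each other and the difference of the responses were compared. Single genes in 3 against 3 libraries cannot go below p = 0.10 in an exact permutation test, so no such test was used. Fragments were recovered for 8 of the 10 genes from the steps of the FPKM values (tolerance 0.1 of a fragment).

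Alternatives were another pseudocount (0.1), no filter or a minimum of 0.1 FPKM, all 12 libraries in 1 fit, a replicate block, natural splines of GC content and length (5 degrees of freedom each), coding genes only, median-of-ratios and upper-quartile scaling, and each library left out. The code was tested on simulated data: of 200 genes changed by 2 on the log2 scale, 198 of BxPC-3-GR and 193 of CFPAC-1-GR were called. The changed genes were drawn only from those with a mean of at least 2 FPKM, so recovery of lower genes was not tested. Named beside the 10 genes were the 3 leading genes called each way per list and comparison, each transcription factor called in any comparison, the nearest 2 expressed coding genes on each side of a gene, and the 3 most similar genes; a few genes named by this rule and 1 motif are not reported here. The 10 genes and all lists were chosen with earlier results of these data known.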

Additional observations from a re-analysis of the deposited data

Results flagged for a closer look

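For 5 of the 10 genes the CFPAC-1-GR change minus the BxPC-3-GR change was called on the scale of log2(FPKM + 1). It was -3.64 for DMBT1, -3.61 for TM4SF4, -2.05 for LYZ, -1.96 for AGR2 and -1.02 for TFF2. For AGR2 it came from a rise in BxPC-3-GR with 0.09 in CFPAC-1-GR. For LYZ and TFF2 every library was higher in BxPC-3-GR and lower in CFPAC-1-GR than in the parental line, at 0 to 2 fragments in each BxPC-3 library. TM4SF4 was listed at 0 in the BxPC-3 lines, and DMBT1 was lower in every library of both resistant lines by close ratios (18.5 and 19.8, the first with 5 fragments in BxPC-3-GR), so that its difference lay in the low level of the BxPC-3 lines on this scale. The TFF2 value was -0.96 without BxPC-3-GR replicate 2, -0.91 without CFPAC-1-GR replicate 1 and -0.43 after GC and length correction, each short of a call. Groups of 3 were too small to look for single outlying libraries.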

How the results depend on the processing

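Between BxPC-3-GR and its parent, calls were made for 2 of the 10 genes as reported, and for 1, AGR2, with no filter, with the replicate block, after GC and length correction or with both; leaving out 1 library gave 1 to 2. The added setting (pseudocount of 0.1 with a minimum mean of 0.1 FPKM) gave 5. Between the resistant lines 1 was called as reported, 3 with no filter or a minimum of 0.1 FPKM, 6 with the added setting, and 0 to 1 without 1 library, since DMBT1 then fell under the filter. Between the parental lines 6 were called as reported and 4 without CFPAC-1 replicate 1. After GC and length correction, with or without the block, signs turned for TFF2 (0.13) and AGR2 (-0.59) in CFPAC-1-GR, TFF1 between parental lines (-0.61) and TFF1 between responses (0.47). AGR2 in CFPAC-1-GR also turned with median-of-ratios (-0.21) and upper-quartile scaling (-0.33). The response difference of TSPAN8, -0.01 as reported, was 0.75 with a pseudocount of 0.1, also at the lower minimum, and ranged from -0.13 to 0.07 without 1 library, being 0.03, 0.02, 0.07, 0.00 or 0.06 where the sign turned. The cause was not tested in any of these.

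Replicate numbers did not pair the libraries: deviations of same-numbered libraries correlated between -0.14 and 0.096. With the replicate block the adjusted p of TFF1 in BxPC-3-GR was 0.079, and the block changed no other call of the 10 genes. In all, 417 of 454 gene values under alternatives kept their direction and side of the threshold. Counts of all genes called moved most in CFPAC-1-GR, from 3880 to 1134 after GC and length correction and 8320 with the added setting. In the other comparisons the added setting gave 2665 against 909, 10503 against 5274, 6128 against 2111 and 9150 against 4643, a pseudocount of 0.1 gave 1429 against 909 in BxPC-3-GR, and the correction gave 3195 against 5274 between parental lines and 2386 against 4643 for the responses. AGR3 and REG4 rested on too few fragments for a test.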
